A study of Mus musculus with 16 samples.

Results

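Astrocytes are the glial cells that take up transmitter, buffer ions and water, and supply neurons with metabolites, and 33 genes that define their resting, homeostatic state were followed here in the cortex of mice lacking progranulin. Members were matched by symbol in the table of raw counts, and no measured value enters that rule. The list of members itself was chosen with earlier results of these data known. All 33 were found among 53801 gene identifiers, and all 33 passed the filter on low counts with 10363 tested genes. None of the 33 was called in any comparison between groups, but at most 0.0482% of all tested genes were called in a comparison. For most members the 95% interval excluded a change of 1.5-fold in either direction, beside 53.7% to 55.2% of all genes.

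The cortex of 16 C57BL/6 mice aged 12 to 12.93 months was sequenced with a 3' method (QuantSeq 3' FWD), 1 library per animal. In the KO AAV group (n = 5, 3 males and 2 females), Grn knockout mice had received AAV(L):bPGRN into the tail vein at 300000000000 vector genomes, and treatment had lasted 8 months. This adeno-associated virus targets the liver and encodes human progranulin joined to 8D3, a single-chain antibody against the mouse transferrin receptor. The KO saline group (n = 5, 4 males and 1 female) carried the same Grn knockout and had saline, and the WT saline group (n = 6, 3 males and 3 females) was wild type for Grn and had saline. No group of wild-type mice with the virus was analysed here, so the comparison of the virus with saline holds within the knockout only.

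The members fall into 6 roles. Slc1a2, Slc1a3, Slc6a11, Slc7a10, Slc7a11 and Glul handle glutamate, GABA and other amino acids: astrocytes clear glutamate from the synapse through Slc1a2 (GLT-1) and Slc1a3 (GLAST) and turn it into glutamine with glutamine synthetase, the product of Glul. Aqp4, Kcnj10, Slc4a4, Atp1b2, Mlc1, Ttyh1 and Slc39a12 move or bind water, ions and metals, and the first of these lines the endfeet on blood vessels. Gja1 and Gjb6 encode connexin 43 and connexin 30, the gap junction proteins that couple astrocytes into a network, and Cldn10 encodes a claudin. In the reactive state that follows injury or disease, astrocytes add intermediate filaments such as Gfap, and some of the homeostatic genes can fall. The question here is whether the homeostatic genes differ in cortex without progranulin, and whether the virus moves them.

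Promoters of 4 members are shown because these members carry the contrasts described further on. Glul and Gjb6 were the members whose KO AAV and KO saline libraries did not overlap, and Gja1 and S100b varied in opposite directions between libraries. Each sequence is the RefSeq (GRCm38.p6) window of 300 bases, 250 before to 50 after an annotated start, read 5' to 3' on the gene's strand. Capitals mark TTGGC or its complement GCCAA, the half-site that nuclear factor I proteins, regulators of astrocyte differentiation, are known to bind.
Glul promoter, chr1:153899679-153899978, plus strand: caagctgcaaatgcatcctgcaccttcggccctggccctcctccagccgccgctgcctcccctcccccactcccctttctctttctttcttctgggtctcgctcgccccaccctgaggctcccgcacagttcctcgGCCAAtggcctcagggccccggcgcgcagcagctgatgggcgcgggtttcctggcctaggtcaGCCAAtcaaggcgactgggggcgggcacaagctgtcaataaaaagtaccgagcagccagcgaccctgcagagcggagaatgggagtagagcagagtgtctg
Gjb6 promoter, chr14:57133562-57133861, minus strand: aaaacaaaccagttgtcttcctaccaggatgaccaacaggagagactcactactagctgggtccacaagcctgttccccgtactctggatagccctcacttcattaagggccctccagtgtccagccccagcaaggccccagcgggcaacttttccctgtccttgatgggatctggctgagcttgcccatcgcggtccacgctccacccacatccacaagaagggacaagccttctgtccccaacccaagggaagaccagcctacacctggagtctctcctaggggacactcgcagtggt
Gja1 promoter, chr10:56377050-56377349, plus strand: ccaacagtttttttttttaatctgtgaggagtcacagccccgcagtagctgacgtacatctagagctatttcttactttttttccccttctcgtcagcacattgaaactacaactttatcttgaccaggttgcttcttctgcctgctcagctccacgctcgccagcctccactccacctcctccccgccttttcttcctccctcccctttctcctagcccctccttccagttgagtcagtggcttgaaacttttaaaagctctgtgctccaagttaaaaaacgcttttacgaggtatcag
S100b promoter, chr10:76253586-76253885, plus strand: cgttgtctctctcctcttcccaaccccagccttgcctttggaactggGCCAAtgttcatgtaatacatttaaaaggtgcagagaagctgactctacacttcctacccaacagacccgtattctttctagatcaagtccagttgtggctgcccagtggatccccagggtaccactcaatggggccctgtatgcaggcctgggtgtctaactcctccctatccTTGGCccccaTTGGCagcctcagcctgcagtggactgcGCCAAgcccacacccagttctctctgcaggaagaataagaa
The letters occurred 2 times in the Glul window and 4 times in the S100b window, and not at all in those of Gja1 and Gjb6. Over the 28 members with a RefSeq promoter, 17 of 34 windows (50%) held TTGGC on either strand, against 46.7% of all 32851 promoter windows. The E-box CANNTG was found in 73.5% of the members' windows and 72.3% of all windows. The letters ACAAT, a core of sites bound by SOX proteins, stood in 4 of the members' windows (11.8%) and in 31.0% of all windows. Members' windows held a median of 11 CpG dinucleotides, against 7 over all windows. These are matches of letters and no measure of binding.

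Library totals were 1614251 to 1867168 counts in KO AAV, 1351974 to 1720657 in KO saline and 1626788 to 2119019 in WT saline. Grn had 0 counts in every KO AAV and KO saline library and 16 to 67 counts in the WT saline libraries. At a floor of 3 counts over a group, it was at least 61.4-fold lower in KO AAV than in WT saline and at least 49.9-fold lower in KO saline than in WT saline. Markers of cortical excitatory neurons summed to 3456 to 4975 CPM (counts scaled to library size) in KO AAV, 3858 to 5702 in KO saline and 3842 to 6151 in WT saline, with Rtn4rl2 at 0 counts in every library. Choroid plexus and ependyma markers summed to 8.10 to 20.3 CPM in KO AAV, 10.5 to 34.7 in KO saline and 8.31 to 19.1 in WT saline. Deposited counts are rounded to 2 digits, which moves a value by at most 5% and touches 434 of the members' 528 values. The labels do not name the source of replicate animals beyond group and number, and p-values measure the spread between these libraries. In this bulk tissue, fewer astrocytes and less RNA per astrocyte cannot be told apart.

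Together the members took a similar share of the counts, 1.94% ± 0.135 in KO AAV (SD, n = 5), 1.99% ± 0.0699 in KO saline (n = 5) and 1.94% ± 0.0976 in WT saline (n = 6). Heavily counted members dominate this share: Slc1a2 alone averaged 6717, 7071 and 6685 CPM in these groups, of member sums between 17800 and 23050 CPM per library. A score for each library, the mean over members of log2 CPM less the gene's mean over libraries, weights all members equally. The score averaged -0.01 ± 0.08 in KO AAV, 0.03 ± 0.08 in KO saline and -0.01 ± 0.12 in WT saline. It ran from -0.11 to 0.09 in KO AAV, from -0.10 to 0.11 in KO saline and from -0.23 to 0.11 in WT saline, so that all 3 groups overlapped. WT saline 1 was the lowest library on this score.

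**Figure D1:**
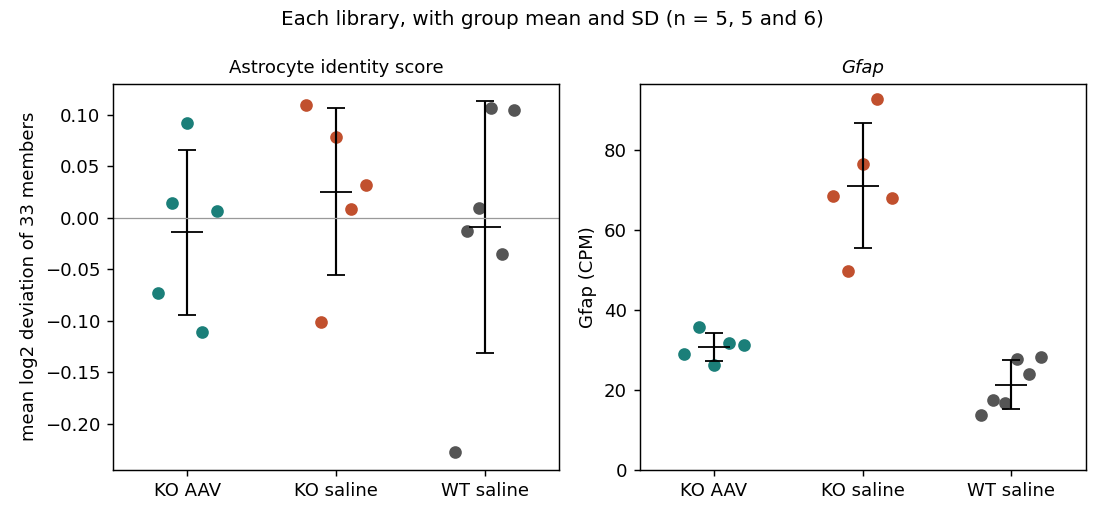
Left, the astrocyte identity score of each library (mean log2 deviation of the 33 members from their mean over 16 libraries), and right, Gfap in CPM, with each point 1 library and bars the group mean and SD. The scores of the 3 groups overlap between -0.10 and 0.09, while the 5 KO saline libraries stand at 49.7 to 92.6 CPM of Gfap, above every KO AAV and WT saline library.

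Gfap, the filament gene of reactive astrocytes, differed between the same libraries. It averaged 30.7 ± 3.49 CPM in KO AAV, 71.0 ± 15.6 CPM in KO saline and 21.3 ± 6.17 CPM in WT saline. Its log2 change was 1.73 (95% interval 1.35 to 2.11, edgeR adjusted p = 3.86e-05) in KO saline against WT saline. It was -1.21 (-1.60 to -0.83, edgeR adjusted p = 0.0086) in KO AAV against KO saline. Both intervals lay clear of those of all 33 members: the highest upper bound of a member was 1.01 (Gja1) in the first of these comparisons, and the lowest lower bound was -0.78 (Aldh1l1) in the other. In KO AAV against WT saline the log2 change of Gfap was 0.52 (0.12 to 0.92, edgeR adjusted p = 0.8809), and it was not called.

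The first comparison asks whether loss of Grn changes the homeostatic genes. In KO saline against WT saline, 0 of 33 members were called by edgeR's quasi-likelihood test, beside 0.0482% of all genes tested, and members' adjusted p ran from 0.9945 to 0.9991. DESeq2 and limma-voom also called 0. At an unadjusted p under 0.05, edgeR, DESeq2 and limma-voom each counted 1 member, Glul, beside 4.11% of all genes in edgeR. Fitted changes lay between -0.33 (Btbd17) and 0.35 (Gja1) on the log2 scale, with 21 of 33 above 0, beside 50.9% of all genes. The median was 0.06 over members and 0.00 over all genes, and 0.11 over members without KO saline 2. No member had groups that did not overlap, beside 0.396% of all genes. The interval lay within 1.5-fold either way for 27 of 33 members (81.8%), beside 55.2% of all genes. The members' SE were smaller, at a median of 0.16 on the log2 scale against 0.19 over all genes.

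Glutamine synthetase had the lowest p of the 33 members in this comparison. Glul (chr1:153899944-153909723, plus strand) had 2985, 2964, 3011, 2778 and 3026 CPM in the KO saline libraries, against 2172 to 2935 CPM with a median of 2624 in WT saline. Only KO saline 4 stood below the highest WT saline library, and the groups overlapped there. The mean was 2953 ± 101 CPM in KO saline and 2567 ± 312 CPM in WT saline, a log2 change of 0.20 (SE 0.10, 95% interval 0.00 to 0.40, edgeR adjusted p = 0.9945). Counts of Glul can include reads of Teddm2, which overlaps its exons on the other strand, and of Mir8114 on its own strand, since no source used here gives the strand setting of the counting. The same limit touches Slc1a2, Slc7a10, Ttyh1, Aldh1l1, Pla2g7, Dio2, Hes5 and Fgfr3, whose exons overlap another gene on the other strand, and Aldh1l1 overlaps Gm45901 on its own strand too.

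Sparcl1, an extracellular matrix protein that astrocytes secrete and that promotes synapses, had 2259, 2594, 1853, 2431 and 2532 CPM in KO saline, against 1883 to 2334 CPM (median 1945) in WT saline. The lowest value of all belonged to KO saline 3, so the groups overlapped fully, and the log2 change was 0.20 (SE 0.11, -0.02 to 0.43, edgeR adjusted p = 0.9945). Kcnj10 encodes Kir4.1, the inward rectifier through which astrocytes buffer potassium. It had 137, 126, 139, 116 and 148 CPM in KO saline, against 99.2 to 134 CPM (median 116) in WT saline. The groups overlapped, with a log2 change of 0.19 (SE 0.11, -0.03 to 0.41, edgeR adjusted p = 0.9945). Slc7a11, the cystine and glutamate exchanger, had 76.6, 64.5, 108, 81.0 and 74.1 CPM in KO saline, against 60.9 to 79.8 CPM (median 74.0) in WT saline. KO saline 3 stood apart at the top, and the change of 0.19 (SE 0.13, -0.08 to 0.46) did not pass the test (edgeR adjusted p = 0.9945). Without KO saline 3 it was 0.06.

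By role, 4 of 6 amino acid genes had a fitted change above 0, as did 5 of 7 water, ion and metal genes, 3 of 3 junction genes, 4 of 5 enzymes, 2 of 7 transcription factors, receptors and signalling genes, and 3 of 5 secreted proteins. No role held a called member. The transporter Slc1a2, the most heavily counted member, averaged 7071 ± 1149 CPM in KO saline and 6685 ± 578 CPM in WT saline, and its interval of 0.907-fold to 1.23-fold was among the narrow ones. Slc1a3 averaged 866 ± 216 CPM in KO saline and 867 ± 210 CPM in WT saline. Aqp4, the water channel, averaged 171 ± 37.6 CPM in KO saline and 148 ± 29.4 CPM in WT saline, with an interval of 0.911-fold to 1.46-fold. Intervals of 6 members reached past 1.5-fold: Slc6a11, Slc39a12, Gja1, Hes5, Ndrg2 and Btbd17. For these 6 a change of that size was not excluded at this depth and spread.

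**Figure D2:**
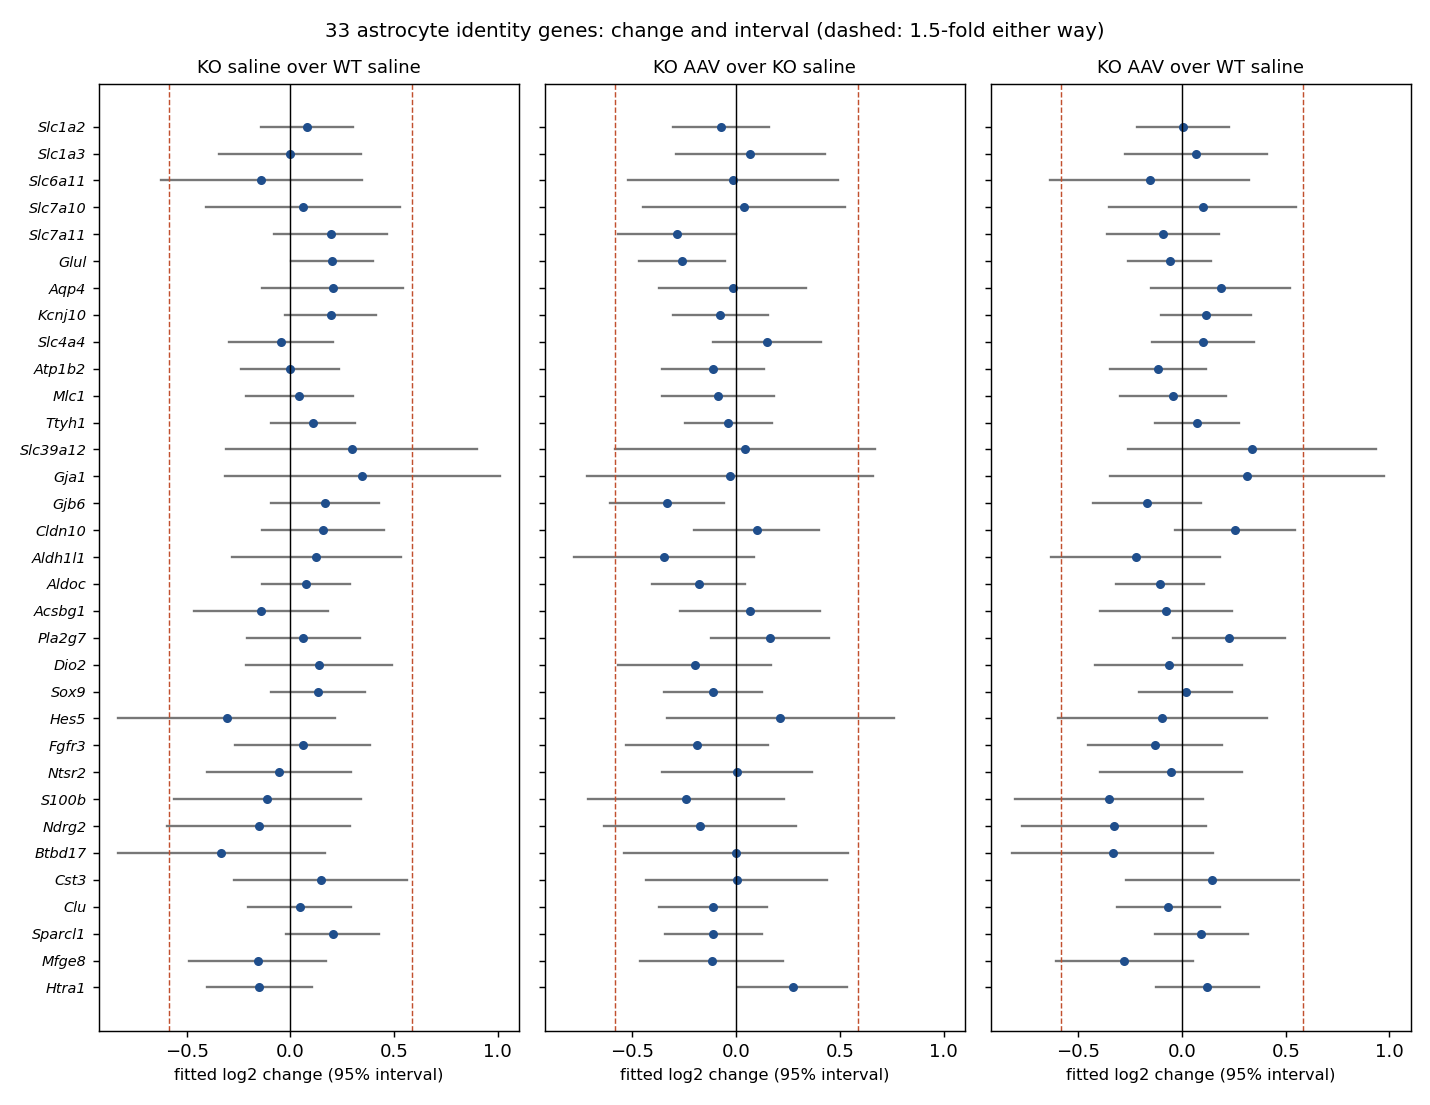
Fitted log2 change (point) and 95% interval (line) of each of the 33 members, ordered by role, in KO saline over WT saline, KO AAV over KO saline and KO AAV over WT saline; dashed lines mark 1.5-fold either way. Most intervals lie between the dashed lines in each comparison, 27, 26 and 24 of 33, and Gja1 and Slc39a12 have the widest of the first panel.

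The second comparison asks whether the virus changed these genes in the knockout. In KO AAV against KO saline, 0 of 33 members were called by edgeR, DESeq2 or limma-voom, beside 0.0193% of all genes tested in edgeR. Every member had an edgeR adjusted p of 0.9996. At an unadjusted p under 0.05 each of the 3 tools counted 3 members (9.09%), Glul, Gjb6 and Htra1, beside 2.49% of all genes in edgeR. Fitted changes ran from -0.35 (Aldh1l1) to 0.27 (Htra1), with 11 of 33 above 0, beside 47.6% of all genes. The median was -0.07 over members and -0.01 over all genes (members -0.03 without KO saline 1 or without KO AAV 4), and 26 of 33 intervals (78.8%) lay within 1.5-fold, beside 53.7% of all genes. The groups did not overlap for 2 members, Glul and Gjb6, both lower in KO AAV, beside 0.502% of all genes in either direction and 0.289% in that one. Both comparisons with KO saline share those 5 libraries, so a high value there raises a gene in the first comparison and lowers it in this one.

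Glul had 2410, 2768, 2403, 2312 and 2430 CPM in KO AAV, against 2985, 2964, 3011, 2778 and 3026 CPM in KO saline. The groups did not overlap, but KO AAV 2 and KO saline 4 were 9.80 CPM apart, less than the 28.3 and 28.9 CPM by which rounding of their counts can move them. The mean was 2465 ± 176 CPM in KO AAV against 2953 ± 101 CPM in KO saline, a log2 change of -0.26 (SE 0.10, -0.47 to -0.05, edgeR adjusted p = 0.9996). KO AAV against WT saline gave -0.06 for Glul (-0.26 to 0.14, edgeR adjusted p = 0.9173).

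Gjb6 (chr14:57123303-57133611, minus strand), connexin 30, had 53.6, 62.2, 58.7, 46.8 and 61.7 CPM in KO AAV, against 69.4, 65.2, 84.9, 69.5 and 67.9 CPM in KO saline. The nearest libraries, KO AAV 2 and KO saline 2, were 3.07 CPM apart, and rounding can move the first by 2.83 CPM. The mean was 56.6 ± 6.45 CPM in KO AAV against 71.4 ± 7.76 CPM in KO saline, a log2 change of -0.33 (SE 0.13, -0.61 to -0.06, edgeR adjusted p = 0.9996). WT saline libraries held 53.4 to 77.5 CPM (median 62.8) and overlapped both knockout groups. The other gap junction gene, Gja1, averaged 154 ± 52.7 CPM in KO AAV against 157 ± 86.9 CPM in KO saline, with a log2 change of -0.03 and an interval of -0.72 to 0.66.

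Htra1 (chr7:130936111-130985660, plus strand), a secreted serine protease, had 85.7, 102, 96.1, 73.3 and 81.0 CPM in KO AAV, against 69.4, 70.4, 84.9, 57.9 and 80.3 CPM in KO saline. The groups overlapped between 73.3 and 84.9 CPM, and the log2 change was 0.27 (SE 0.13, 0.01 to 0.54, edgeR adjusted p = 0.9996). Slc7a11 had 69.6, 67.8, 69.4, 56.4 and 68.5 CPM in KO AAV, against 76.6, 64.5, 108, 81.0 and 74.1 CPM in KO saline. KO saline 2 lay within the KO AAV values, and the change was -0.28 (SE 0.14, -0.57 to 0.00, edgeR adjusted p = 0.9996), or -0.15 without KO saline 3. Among the other amino acid transporters, Slc6a11, which takes up GABA, had -0.02 (-0.52 to 0.49), and Slc7a10, which carries small neutral amino acids, had 0.04 (-0.45 to 0.53).

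By role, the counts above 0 were 2 of 6 amino acid genes, 2 of 7 water, ion and metal genes, 1 of 3 junction genes, 2 of 5 enzymes, 2 of 7 transcription factors, receptors and signalling genes, and 2 of 5 secreted proteins. Aldh1l1, the folate enzyme often used to mark astrocytes, had the lowest fitted value at -0.35 (SE 0.21, -0.78 to 0.09). It was also thinly counted, at 15.8 ± 2.30 CPM in KO AAV against 20.1 ± 4.26 CPM in KO saline. Sox9, a transcription factor that marks astrocytes in the adult brain, averaged 173 ± 16.3 CPM in KO AAV against 187 ± 15.99 CPM in KO saline, and its interval of 0.785-fold to 1.09-fold was narrow. The intervals of 7 members reached past 1.5-fold, namely Slc39a12, Gja1, Gjb6, Aldh1l1, Hes5, S100b and Ndrg2.

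**Figure D3:**
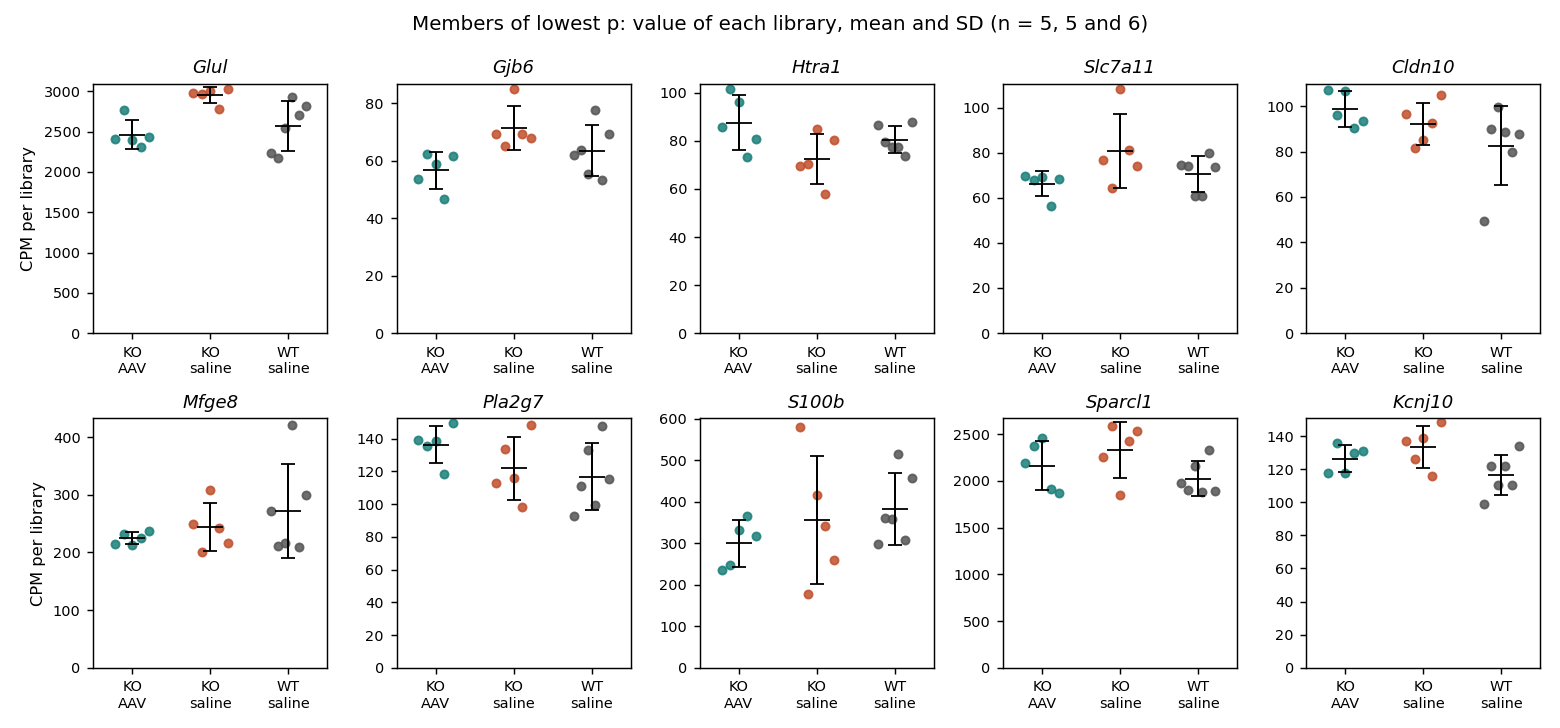
CPM of each library (points) with the group mean and SD (bars) for the 10 members that are among the 4 of lowest p in at least 1 comparison, on axes that start at 0, in KO AAV, KO saline and WT saline. Every KO AAV point lies below every KO saline point for Glul and Gjb6, and the groups overlap for the other 8 members.

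KO AAV against WT saline compares treated knockout mice with untreated wild-type mice. Here too 0 of 33 members were called by edgeR, DESeq2 or limma-voom, beside 0.00965% of all genes tested in edgeR, and the members' adjusted p ran from 0.8809 to 0.9923. At an unadjusted p under 0.05 each tool counted 0 members, beside 4.02% of all genes in edgeR. Fitted changes ran from -0.35 (S100b) to 0.34 (Slc39a12), with 15 of 33 above 0, beside 49% of all genes, and no member's groups were apart, beside 0.318% of all genes. The median was -0.05 over members and -0.01 over all genes, but 0.0113 over members without WT saline 4 and 0.005 without KO AAV 1, so that it took either sign. Intervals lay within 1.5-fold for 24 of 33 members (72.7%), beside 54.2% of all genes. Outside were Slc6a11, Slc39a12, Gja1, Aldh1l1, Hes5, S100b, Ndrg2, Btbd17 and Mfge8.

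Cldn10 (chr14:118787908-118875489, plus strand) had 107, 96.0, 107, 90.2 and 93.5 CPM in KO AAV, against 49.6 to 99.6 CPM (median 88.2) in WT saline. WT saline 1 was well below the rest, the groups overlapped, and the log2 change was 0.26 (SE 0.14, -0.03 to 0.54, edgeR adjusted p = 0.8809), or 0.14 without WT saline 1. Mfge8, a secreted bridge that marks cells and debris for phagocytosis, had 214, 232, 214, 226 and 237 CPM in KO AAV, against 209 to 421 CPM (median 244) in WT saline. All KO AAV values lay at the low end of the WT saline range, with a change of -0.28 (SE 0.16, -0.61 to 0.05, edgeR adjusted p = 0.8809). Without WT saline 4, at 421 CPM, it was -0.10. Pla2g7, a secreted phospholipase that hydrolyses platelet-activating factor, had 139, 136, 139, 118 and 149 CPM in KO AAV, against 93.0 to 147 CPM (median 113) in WT saline. Its change was 0.23 (SE 0.13, -0.04 to 0.49, edgeR adjusted p = 0.8809), with overlapping groups. S100b (chr10:76253853-76261159, plus strand), a calcium-binding protein, had 236, 249, 331, 367 and 318 CPM in KO AAV, against 297 to 515 CPM (median 360) in WT saline. KO AAV 1 and KO AAV 2 lay below every WT saline library, and the change was -0.35 (SE 0.22, -0.81 to 0.10, edgeR adjusted p = 0.8809), or -0.12 with the first principal component described further on as a term.

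By role, 3 of 6 amino acid genes, 5 of 7 water, ion and metal genes, 2 of 3 junction genes, 1 of 5 enzymes, 1 of 7 transcription factors, receptors and signalling genes and 3 of 5 secreted proteins had a fitted change above 0. In the signalling group the changes ran from -0.35 to 0.02. Its members include Hes5, a Notch target, Fgfr3, a receptor of fibroblast growth factors, Ntsr2, a neurotensin receptor, and Ndrg2, and none passed the test. Dio2, which activates thyroid hormone, averaged 244 ± 35.6 CPM in KO AAV and 255 ± 41.1 CPM in WT saline. Aldoc, the aldolase of astrocytes, averaged 1349 ± 119 CPM in KO AAV and 1451 ± 161 CPM in WT saline. Clu and Cst3, the secreted proteins clusterin and cystatin C, had changes of -0.07 (-0.31 to 0.18) and 0.15 (-0.27 to 0.57).

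Members also varied between libraries of the same group. On log2 CPM over the 16 libraries, the SD of a member had a median of 0.26, against 0.31 over all tested genes, and 25 of 33 members were below that median. Ttyh1, a chloride channel family member, varied least (SD 0.13), near Kcnj10, Slc1a2 and Sox9 (each 0.15). At the other end stood Gja1 (SD 0.66, above 96.9% of tested genes) and Slc39a12, a zinc transporter (SD 0.58, above 94.3%).

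The wide members followed the first principal component of all tested genes, which held 33.9% of the variance. WT saline 4, KO saline 3 and KO saline 1 had its lowest values, -42.6, -34.2 and -28.4, and the KO AAV libraries ran from -2.06 to 21.3. KO saline 1 and 3 also had the 2 highest mitochondrial shares of counts, 29.8% and 26.2%, against 20.4% to 25.5% in the other libraries. Their totals, 1387658 and 1351974 counts, were the 2 smallest. WT saline 4, lowest on the component, had a share of 24.4% and 1849280 counts. KO saline 2, with 1409068 counts, had the highest value on the component, 28.8. The part of these measures in the members' values was not tested. More than 50% of the variance of 13 of 33 members ran with this component, beside 21.7% of all genes. Of these, 5 had a positive slope on it, namely Gja1 (92.6% of its variance), Slc39a12 (90.5%), Slc1a3 (77.1%), Cst3 (52.3%) and Sparcl1 (50.6%). The other 8 had a negative slope: Slc6a11 (83.3%), Ndrg2 (71.2%), S100b (67.4%), Mfge8 (67.4%), Btbd17 (66.3%), Clu (64.8%), Mlc1 (63.2%) and Acsbg1 (50.6%). The component was computed from genes that include the members, so these shares are a description.

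Gja1 (chr10:56377330-56402513, plus strand) had 214, 209, 123, 107 and 118 CPM in KO AAV. In KO saline it had 64.5, 193, 64.8, 208 and 253 CPM, and in WT saline 60.9 to 190 CPM (median 126). Its 3 lowest values, 64.5 and 64.8 CPM in KO saline 1 and 3 and 60.9 CPM in WT saline 4, belong to the 3 libraries lowest on the component. S100b was high in the same libraries, at 581 and 417 CPM in KO saline 1 and 3 and 515 CPM in WT saline 4. Ndrg2 had 1129 and 926 CPM in KO saline 1 and 3 and 1329 CPM in WT saline 4, its 3 highest values. Other members hardly followed the component, which held under 1% of the variance of Glul, Sox9, Kcnj10, Htra1 and Fgfr3.

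**Figure D4:**
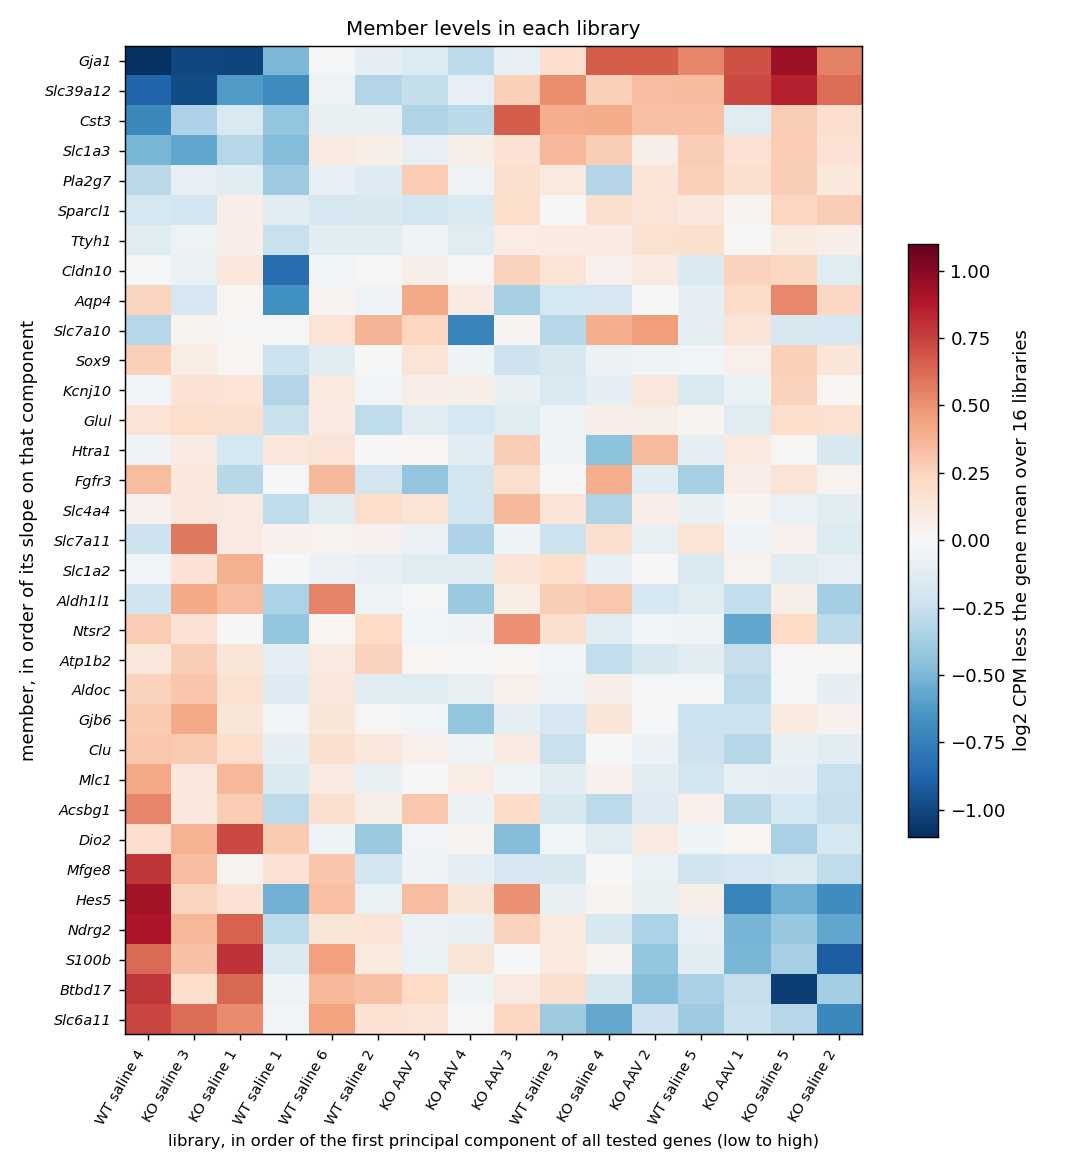
Each cell is a member's log2 CPM in 1 library less its mean over the 16 libraries (red above, blue below), with libraries ordered from low to high on the first principal component and members by their slope on it. Gja1 and Slc39a12 run from blue at left to red at right, Slc6a11, Btbd17, S100b and Ndrg2 run the opposite way, and the 6 libraries at the left are all KO saline or WT saline.

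GC content moved with this component over all genes. In the fifth of genes with the lowest transcript GC, 27.5 to 43.3%, the median slope was 0.08 log2 per SD of the component, and in the fifth with the highest, 55.0 to 71.3%, it was -0.09. Gja1 and Slc39a12, with positive slopes, had 42.2% and 43.2% GC, and Btbd17 and Hes5, with negative slopes, had 57.7% and 62.1%. The trend did not hold for every member. Slc7a11, the member of lowest GC (40.7%), had a slope of -0.05, Aqp4 (41.4%) had 0.06 and Dio2 (43.35%) had -0.18. At high GC, Cst3 (57.2%) had 0.27, Slc7a10 (57.0%) 0.03, Fgfr3 (56.4%) -0.02 and Htra1 (56.15%) -0.01. Mfge8 (56.2%), Clu (55.6%) and Acsbg1 (55.4%) had -0.23, -0.15 and -0.18. The part of GC content or of library preparation in these members' values was not tested. With the component as a term, an alternative chosen after seeing the data, 0 members were called in each comparison. The KO saline against WT saline change of Gja1 was then -0.05 (SE 0.12), in place of 0.35 (SE 0.32), and that of Slc39a12 was -0.03 (SE 0.13), in place of 0.30 (SE 0.29). Without the 3 libraries, also chosen after seeing the data, 0 members were called. Then 9, 4 and 0 had an unadjusted p under 0.05 in the 3 comparisons in the order above, beside 13.3%, 6.05% and 3.83% of all genes. Gja1 and Slc39a12 were among the 9. Over the alternatives run, the KO saline against WT saline change ran from -0.05 to 0.68 for Gja1. For Slc39a12 it ran from -0.03 to 0.58.

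A further list of 60 astrocyte genes that are no members was read from the same fit. Of these, 58 were tested, all but Paqr6 and Gli2, and edgeR called 0 in each comparison. At an unadjusted p under 0.05 there were 3 in KO saline against WT saline, 2 in KO AAV against KO saline and 2 in KO AAV against WT saline. The shares of all genes were 4.11%, 2.49% and 4.02% in that order, and the members had 1, 3 and 0 of 33. Medians over the list were 0.07, -0.06 and -0.01. In KO saline against WT saline the lowest p belonged to Scrg1 (0.54, SE 0.17), Apoe, the brain's main lipid carrier (0.20, SE 0.10), Rorb (0.23, SE 0.11) and Nfia, a nuclear factor I gene (0.21, SE 0.12). In KO AAV against KO saline it belonged to Apoe (-0.27), Gabrg1 (0.28), Tlcd1 (-0.49) and Nfia (-0.23), and in KO AAV against WT saline to Gabrg1 (0.27), Tril (0.27), Id2 (0.22) and Slc27a1 (-0.34). Vim, a second filament gene of reactive astrocytes, had 0.59 (edgeR adjusted p = 0.5652), -0.49 (0.9996) and 0.10 (0.9139) in the same order. Of a list of 12 reactive astrocyte genes with Gfap and Vim, 6 were tested, and Serpina3n, Osmr, Lcn2, Steap4, S1pr3 and Aspg did not pass the filter on low counts. The 6 had medians of 0.76, -0.39 and 0.21, with 4, 3 and 2 at an unadjusted p under 0.05, beside 4.11%, 2.49% and 4.02% of all genes. Gfap and Vim are among the 6, so these values partly repeat theirs. Gfap alone was called, in the first 2 of these comparisons.

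Markers of the other cells of cortex bear on these values, since Cst3, Clu, Glul and Sparcl1 are not made by astrocytes alone. Of the microglia markers, 7 of 8 were matched and tested, and none was at 0 counts. They summed to 288 to 356 CPM (median 309) in KO AAV, 309 to 479 (median 319) in KO saline and 267 to 360 (median 330) in WT saline. Their score, formed as for the members, ran from -0.07 to 0.62 in KO saline with a median of 0.04. Its median was -0.08 in KO AAV and -0.02 in WT saline. The median log2 changes of these 7 were 0.28 in KO saline against WT saline, -0.31 in KO AAV against KO saline and -0.05 in KO AAV against WT saline, with 0 called. In each of the comparisons with KO saline, 3 of the 7 had an unadjusted p under 0.05, beside 4.11% and 2.49% of all genes. In KO AAV against WT saline none did, beside 4.02%. Other lists had medians away from 0 as well. In the same order of comparisons, the 6 tested excitatory neuron markers had 0.01, -0.18 and -0.10. The 3 tested oligodendrocyte precursor markers had 0.22, 0.03 and -0.12. Oligodendrocyte markers summed to 4046 to 6548, 4064 to 5651 and 3648 to 6199 CPM in KO AAV, KO saline and WT saline, and endothelial markers to 281 to 363, 282 to 356 and 263 to 320 CPM. No tested marker of neurons, the oligodendrocyte lineage, microglia, vessels or choroid plexus was called in any comparison. Only 1 of the 6 choroid plexus and ependyma markers was tested, since Ttr, Kl, Folr1, Ccdc153 and Tmem212 did not pass the filter on low counts. The part of these cells in the members' values was not tested.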

How the data were processed

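Members, roles and lists were chosen with earlier results of these data known. Per the labels' protocols, RNA came from frozen brain powder of perfused mice, and libraries carried unique molecular identifiers against PCR duplicates. STAR, edgeR 3.40.2, R 4.2, FastQC 0.11.5, MultiQC 1.0 and build GRCm38.p6 are named in the submitters' processing notes. Counting program and strand setting were not given in the sources used here. Files that the authors deposited hold raw counts per gene, a CPM table (a signal scaled to depth), and a sample annotation with sex, library size and a normalization factor, a ratio that multiplies library size.

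From the counts, genes were filtered with filterByExpr, given TMM factors, and tested by edgeR's quasi-likelihood method in 1 model of all 16 libraries (R 4.3.3, edgeR 4.0.16, limma 3.58.1, DESeq2 1.42.0, data.table package 1.17.8) with group as the single factor, Benjamini-Hochberg adjustment over 10363 genes and a threshold of 0.05. Printed CPM divide counts by TMM-scaled totals, and log2 CPM has a prior count of 2. Errors are SD over animals, or SE of the fitted log2 change; 95% intervals use the moderated degrees of freedom. The floor of 3 counts covers counting error only. RNA integrity was 8 in WT saline 3 and KO saline 4 and 9.2 to 9.6 in the others. No libraries were identical (highest correlation of log2 CPM 0.9735). Positions come from GENCODE M21 (GRCm38). Per-library values are given for the 4 members of lowest p in each comparison and those whose groups do not overlap; Gja1 and Ndrg2 were added after their values were seen.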

Additional observations from a re-analysis of the deposited data

Results flagged for a closer look

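In 7 of 99 groups of libraries, 1 per member and group, a single library stood far from the others of its group; chance alone flags about 1 in 20 groups. Slc7a11 was 56.4 CPM in KO AAV 4, below the 67.8 to 69.6 CPM of the other KO AAV libraries. Glul was 2768 CPM in KO AAV 2, above the other KO AAV libraries (2312 to 2430 CPM), and 2778 CPM in KO saline 4, below the other KO saline libraries (2964 to 3026 CPM). These 2 libraries are the ones between which the Glul groups nearly meet. Gjb6 was 84.9 CPM in KO saline 3, above the other KO saline libraries (65.2 to 69.5 CPM). Ttyh1 was 339.7 CPM in KO saline 3, where the others held 370.5 to 376.8 CPM. Dio2 was 181.5 CPM in KO AAV 3, where the others held 249 to 271 CPM. Ndrg2 was 1329 CPM in WT saline 4, the library lowest on the first principal component, where the others held 589 to 795 CPM.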

How the results depend on the processing

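The count of called members stayed at 0 in each comparison under every alternative run: scaling, filters, DESeq2, limma-voom, limma on deposited CPM, other terms, males only, and leaving out libraries. Members at an unadjusted p under 0.05 changed with the filter. Without a count filter, edgeR counted 2 in KO saline against WT saline (Gja1 and Btbd17), beside 4.8% of all genes. It counted 0 in KO AAV against KO saline, beside 3.14%. In KO AAV against WT saline it counted 5 (Slc39a12, Gja1, S100b, Ndrg2 and Mfge8), beside 5.26%. The 12 named member results kept their sign, and stayed uncalled, in all 372 alternatives, but sizes moved. These 12 were chosen for low p in the same libraries, which the alternatives refit in whole or in part. Their kept signs are therefore no independent support. Mfge8 in KO AAV against WT saline (-0.28) was -0.08 in males only, -0.08 with the first component as a term and -0.18 with age as a term; S100b (-0.35) was -0.12 and -0.23 with these terms, and Pla2g7 (0.23) was 0.15 with the component. In males only Glul in KO saline against WT saline (0.20) was 0.33, and Htra1 in KO AAV against KO saline (0.27) was 0.44. Without the 3 libraries lowest on the component, Slc7a11 was 0.02 in KO saline against WT saline, while KO AAV against KO saline gave -0.14. Counts of called genes over the whole table moved more. Without a count filter they were 16 genes in KO saline against WT saline, 4 in KO AAV against KO saline and 2 in KO AAV against WT saline. In males only they were 2 for KO saline against WT saline and 0 for KO AAV against KO saline, and the member median in KO AAV against WT saline was 0.0729 on the log2 scale. That median (-0.05) was also above 0 with age (0.0046) or the component (0.0112) as a term, without the 3 libraries (0.0117), without WT saline 4 (0.0113) and without KO AAV 1 (0.005). The KO AAV against KO saline median (-0.07) was 0.0212 without the 3 libraries, and that of KO saline against WT saline (0.06) was 0.0173. KO AAV against KO saline called 1 gene at a mean CPM of at least 5, 0 with limma on deposited CPM, 1 without the libraries of RNA integrity 8, and 1 to 2 when each library was left out in turn. The labels do not say what the replicate numbers mark, and replicates 1 and 2 were males of 12.2 months in all 3 groups. Correlations of same-numbered libraries ran from -0.431 to 0.444, and 1 or 2 of 5 libraries correlated best with their own number. These correlations cannot decide whether the numbers pair the animals, because other differences between libraries enter them too. A replicate block gave 3 called genes in KO saline against WT saline, 1 gene in KO AAV against KO saline, and 0 members. Without the 3 libraries lowest on the first component, chosen after seeing the data, 9 genes were called in KO saline against WT saline, none a member. The cause of these shifts was not tested. Groups of 5 and 6 animals and totals of at most 2119019 counts limit what the intervals exclude, and SE were widest for Gja1 and Slc39a12 in each comparison.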
